A study of Mus musculus with 2 samples.

Results

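The 10 genes described here form the calcium storage, buffering and reuptake group of muscle: Casq1, Casq2, Atp2a1, Atp2a2, Sln, Pvalb, Srl, Hrc, Asph and Calr. They were taken as all probe sets that carried exactly 1 of these symbols in the platform annotation, which gave 23 probe sets for 10 of the 18193 genes named on the array. A probe set is a group of short probes that together report 1 transcript. The RNA came from diaphragm muscle of C57/BL6 mouse embryos at stage E18.5, with 1 array for the genotype RP58+/+ and 1 for RP58-/-. RP58 is the zinc finger repressor now named Zbtb18, and the comparison asks how muscle RNA differs when it is missing. How the allele was made, and how many embryos gave each RNA, are not given in the sources used here.

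When a muscle fibre relaxes, calcium pumps of the SERCA family return calcium from the cytosol to the sarcoplasmic reticulum, where calsequestrin and other acidic proteins hold it until the next release. Small membrane peptides such as sarcolipin restrain the pumps, and parvalbumin binds calcium in the cytosol of fast fibres and so speeds relaxation. Several of these proteins exist as a fast-fibre form and a slow-fibre or cardiac form encoded by separate genes.

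All values are deposited log2 signals, and a difference is the array labelled RP58-/- minus the array labelled RP58+/+. With 1 array per genotype there was no spread between embryos and no test, so no difference here has a replicate check. A gene was counted as lower or higher when its difference reached 1.5-fold, which is 0.58 on the log2 scale. The probe set with the highest mean signal stood for each gene, and probe sets with a mean signal under 5.52, the 40th percentile, were left out of the counts. The only repeat measure was that between different probe sets of a gene, whose differences had a pooled SD of 0.28 over 5675 genes. The single Zbtb18 probe set read 8.91 on the array labelled RP58+/+ and 9.21 on the array labelled RP58-/-. Where it lies relative to the altered part of the gene is not known here, so it did not check the labels. The arrays also differed in the X-inactivation RNA Xist, at 11.47 and 6.96 in the same order. The Y-linked genes Eif2s3y and Kdm5d ran the other way. Eif2s3y read 3.59 and 8.58 in that order, and the difference of Kdm5d was 3.31. The RNA thus read as female on the array labelled RP58+/+ and as male, or mainly male, on the array labelled RP58-/-. Genotype and sex therefore cannot be told apart here. The 24 poly-A control probe sets with signal were lower on the array labelled RP58-/- by a median of -0.75, and every difference given here is relative to the median gene (-0.003).

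Of the 10 genes, 8 were lower on the array labelled RP58-/-. Of all 14093 genes above the floor, 6.51% were lower by the same rule and 3.83% were higher. Of the 10, 0 were higher and 7 were lower by at least 2-fold, against 2.31% of all genes. Scaled to the 24 poly-A control probe sets with signal, 6 of the 10 were lower by the 1.5-fold rule, against 1.29% of all genes. Scaled to all 27, which include 3 silent Trp probe sets, 7 of the 10 were lower, against 1.48% of all genes. Under the scaling to all 27, Calr (0.96) and Atp2a2 (0.86) were higher, as were most genes, since the median of all genes was 0.66. The median difference of the 10 was -1.61 (3.05-fold lower), with a range from -3.69 for Pvalb to 0.29 for Calr. The genes within 1.5-fold were Calr and Atp2a2. Atp2a2 and Asph each had probe sets both past the rule and near 0. Of the 21 probe sets above the floor, 12 were lower, 9 were within 1.5-fold and 0 were higher, against 6.49% lower and 3.35% higher among all 23061 such probe sets. Probe sets of 1 gene share their RNA and are not replicates.

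**Figure D1:**
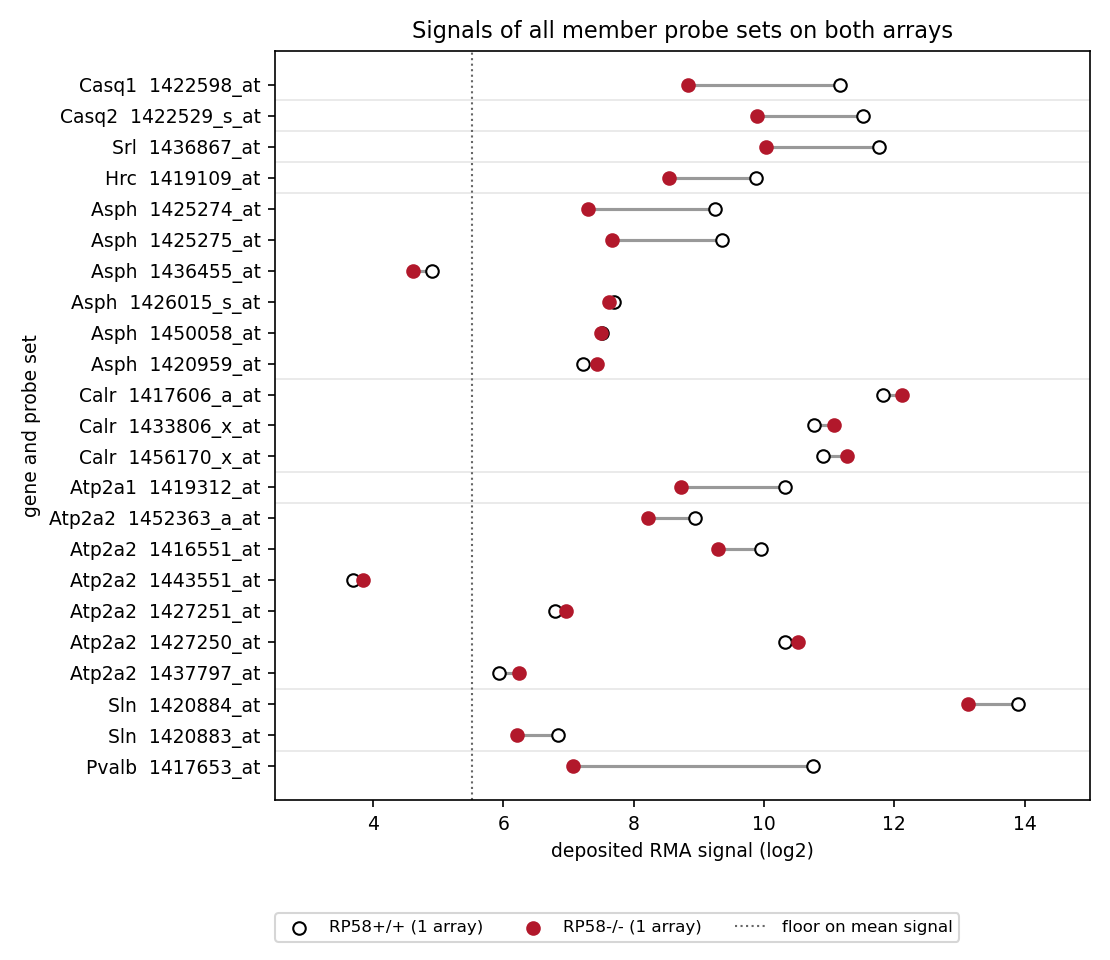
Deposited log2 signals (x axis) of all 23 probe sets of the 10 genes (y axis) on the array labelled RP58+/+ (open) and the array labelled RP58-/- (filled); the dotted line marks the floor of 5.52, which applies to the mean of both arrays. The widest gap is that of Pvalb, from 10.76 to 7.07. The 3 Calr probe sets run the other way, as do several Atp2a2 probe sets and the Asph probe set 1420959_at.

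Promoter windows are shown for Pvalb, Casq1 and Calr, at the ends of this range, and for Casq2 (-1.62), near its median. The same letters can be looked for in each. They are RefSeq windows of build GRCm38.p6 from 250 bases before to 50 bases after an annotated start, 5′ to 3′. Capitals mark every match, on either strand, to the E-box CANNTG bound by MyoD-type factors, to ACATCTG, the core of the RP58 motif, to the MEF2 site and to the CArG box of serum response factor. The RP58 core holds an E-box within it, so any match to it would count under both.
Pvalb promoter at the outer start, chr15:78206351-78206650 (- strand): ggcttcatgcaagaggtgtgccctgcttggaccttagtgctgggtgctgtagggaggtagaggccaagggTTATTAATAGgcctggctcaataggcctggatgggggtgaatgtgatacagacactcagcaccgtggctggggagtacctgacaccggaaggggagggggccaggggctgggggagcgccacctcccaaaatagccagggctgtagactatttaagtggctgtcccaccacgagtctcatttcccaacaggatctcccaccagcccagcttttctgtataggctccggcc
Casq1 promoter, chr1:172219846-172220145 (- strand): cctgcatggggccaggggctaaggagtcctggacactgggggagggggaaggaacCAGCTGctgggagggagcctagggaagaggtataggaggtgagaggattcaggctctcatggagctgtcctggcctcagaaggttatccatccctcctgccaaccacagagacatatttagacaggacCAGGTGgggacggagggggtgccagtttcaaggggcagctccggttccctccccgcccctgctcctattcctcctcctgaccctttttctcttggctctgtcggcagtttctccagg
Casq2 promoter, chr3:102086165-102086464 (+ strand): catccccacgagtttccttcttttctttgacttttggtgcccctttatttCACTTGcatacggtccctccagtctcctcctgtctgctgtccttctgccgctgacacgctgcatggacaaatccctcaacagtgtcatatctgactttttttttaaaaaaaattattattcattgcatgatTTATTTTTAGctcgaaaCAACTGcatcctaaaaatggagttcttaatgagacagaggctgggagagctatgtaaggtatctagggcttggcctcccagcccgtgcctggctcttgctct
Calr promoter, chr8:84846882-84847181 (- strand): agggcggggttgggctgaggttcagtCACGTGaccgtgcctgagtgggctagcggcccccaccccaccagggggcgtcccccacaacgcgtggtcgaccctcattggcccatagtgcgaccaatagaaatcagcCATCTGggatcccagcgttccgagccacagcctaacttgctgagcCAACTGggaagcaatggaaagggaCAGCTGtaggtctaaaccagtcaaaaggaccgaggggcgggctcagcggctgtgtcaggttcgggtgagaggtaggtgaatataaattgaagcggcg
The table held windows for 6 of the 10 genes, and Atp2a2, Sln, Srl and Asph had none there. ACATCTG was in 0 of the 7 windows of these 6 genes, and in 4.43% of all 32851 windows. A MEF2 site was in the outer Pvalb window (bases 71 to 80) and in the Casq2 window (bases 182 to 191), and in 3.19% of all windows. The CArG box was in 0 of the 7, and in 1.63% of all windows. E-boxes were in 72.3% of all windows. There were 2 each in Casq1, Casq2 and the inner Pvalb window, 1 each in Hrc and Atp2a1, and 0 in the outer Pvalb window. Calr, which was not lower, had 4, and Atp2a2, the other gene that was not lower, had no window to search. These matches are letters in a window and are not measured binding sites.

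Calsequestrins are the main calcium-holding proteins inside the reticulum, and the RNA signals of both were lower. Casq1, the form of fast fibres, read 11.17 on the array labelled RP58+/+ and 8.83 on the array labelled RP58-/-. Its difference of -2.34 (5.06-fold lower) placed it the 21st lowest of 14093 genes. Casq2, the form of slow and cardiac muscle, read 11.52 and 9.90, a difference of -1.62 (3.08-fold lower). The Casq1 difference exceeded that of Casq2 by 0.72 on the log2 scale. Each gene had a single probe set, and this gap is smaller than the 95th percentile of disagreement between probe sets of the same gene (0.78), so the calsequestrins cannot be ranked by it.

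The genes Srl and Hrc, for other proteins of the reticulum lumen and its membrane, were lower too. Sarcalumenin (Srl), a calcium-binding glycoprotein that lies near the pumps, read 11.77 and 10.04 on the arrays labelled RP58+/+ and RP58-/-, a difference of -1.73 (3.32-fold lower). The histidine-rich calcium-binding protein gene Hrc, whose product binds triadin and the pump, read 9.87 and 8.55, a difference of -1.33 (2.51-fold lower). Calreticulin (Calr), the calcium-binding chaperone of the endoplasmic reticulum in most cells, ran the other way. Its 3 probe sets read 11.83, 10.76 and 10.91 on the array labelled RP58+/+ and 12.12, 11.07 and 11.27 on the array labelled RP58-/-. Their differences of 0.29, 0.31 and 0.36 all lay above 0 and inside the 1.5-fold rule, close to the probe set SD. Calr was the only one of the 6 genes of the reticulum lumen and junction, Asph included, that was not lower.

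Asph was lower on some of its probe sets and not on others. The gene makes, from alternative promoters and exons, an aspartyl hydroxylase found in many cells, and junctin and junctate, which lack the catalytic part; junctin anchors calsequestrin to the release channel. Probe sets 1425274_at and 1425275_at, which name the same source sequence in the annotation, read 9.25 and 9.36 on the array labelled RP58+/+ and 7.30 and 7.66 on the array labelled RP58-/-. Their differences were -1.95 and -1.69. Probe sets 1426015_s_at, 1450058_at and 1420959_at, from other source sequences, differed by -0.07, -0.02 and 0.22. The sixth, 1436455_at, lay under the floor with signals of 4.91 and 4.61. The differences of the 5 above the floor spanned 2.17, a range exceeded by 3 of the 266 genes with at least 5 such probe sets, for which the median range was 0.58. The annotation names no product for each probe set, so the lower signal is assigned to a pair of probe sets and to no named product.

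**Figure D2:**
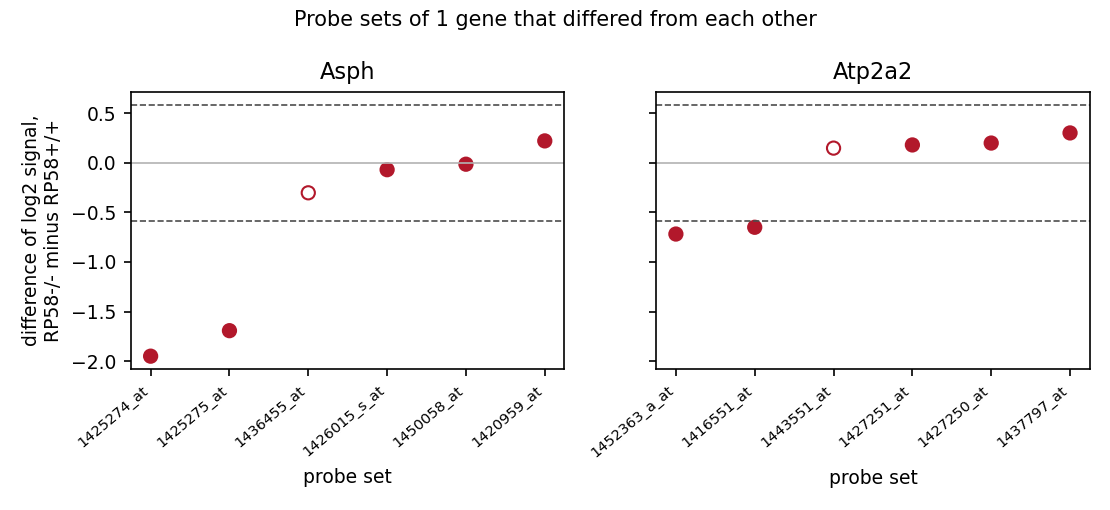
Differences of log2 signal, RP58-/- minus RP58+/+ (y axis), for each probe set (x axis) of Asph and Atp2a2, 1 array per genotype; open points lie under the floor and dashed lines mark 1.5-fold. In each gene 2 probe sets fall below the lower line and the others stay between the lines.

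The pumps differed from each other. Atp2a1, which encodes SERCA1 of fast fibres, read 10.33 on the array labelled RP58+/+ and 8.73 on the array labelled RP58-/-, a difference of -1.60 (3.02-fold lower). Atp2a2 encodes SERCA2, whose spliced forms serve slow and cardiac muscle (SERCA2a) and most other cells (SERCA2b). Its brightest probe set, 1427250_at, read 10.32 and 10.52, a difference of 0.20. Probe sets 1427251_at and 1437797_at differed by 0.18 and 0.30. By contrast, 1416551_at read 9.95 and 9.30 (-0.65), and 1452363_a_at read 8.94 and 8.23 (-0.72), so that both passed the 1.5-fold rule as lower. The sixth probe set, 1443551_at, was under the floor at 3.70 and 3.85. Over the 5 above the floor the range was 1.02, exceeded by 29 of 266 genes, and the mean was -0.14, so the direction for Atp2a2 flips with the way its probe sets are read. The difference of the single Atp2a1 probe set was lower than that of each of these 5, by 0.88 to 1.90 on the log2 scale. These comparisons share 1 Atp2a1 reading and are not independent.

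Sarcolipin (Sln), a small membrane peptide that lowers the calcium transport of the SERCA pumps, had the smallest difference of the 8 lower genes. Its brighter probe set read 13.91 on the array labelled RP58+/+ and 13.12 on the array labelled RP58-/-, a difference of -0.78 (1.72-fold lower). The dimmer one read 6.83 and 6.22, a difference of -0.62. The bright signal lies near the top of the scale (14.39), where array signals are compressed. Scaling the arrays to all 27 poly-A control probe sets brought the Sln difference to -0.12, inside the 1.5-fold rule.

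Parvalbumin (Pvalb), the soluble calcium buffer of fast fibres, had the largest difference of the 10. Its probe set read 10.76 on the array labelled RP58+/+ and 7.07 on the array labelled RP58-/-, which still lay above the floor. The difference of -3.69 (12.9-fold lower) was the third lowest of all 14093 genes above the floor. It was larger than that of Casq1, the next of the 10, by 1.35 on the log2 scale.

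**Figure D3:**
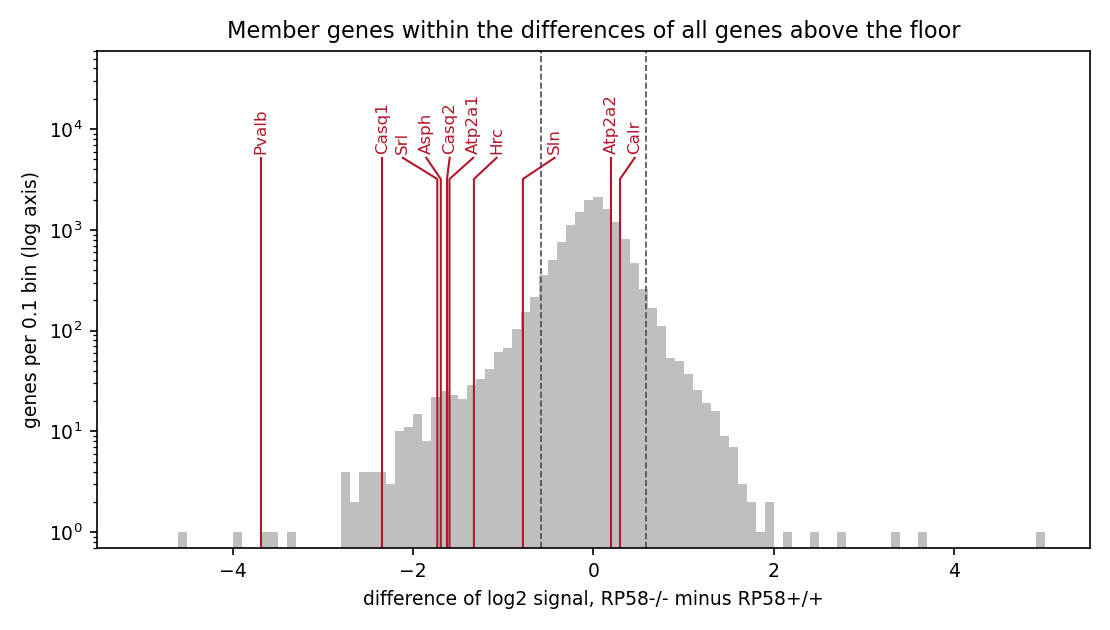
Histogram of the difference of log2 signal, RP58-/- minus RP58+/+ (x axis), over 14093 genes (y axis, genes per bin of 0.1, log axis), with the 10 genes marked in red and 1.5-fold as dashed lines. Pvalb and Casq1 lie in the far left tail, 5 genes lie between -1.73 and -1.33, and Atp2a2 and Calr lie within the central mass.

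General markers of the muscle fibre were lower on the same array. Of 14 skeletal fibre markers, 13 were lower by the 1.5-fold rule and 0 higher, with a median of -1.41 and a range from -1.94 (Myh8) to -0.55 (Myh3). Their summed linear signal on the array labelled RP58-/- was 0.501 of that on the array labelled RP58+/+. That sum rests most on the brightest markers, Mylpf (-0.59), Myl1 (-0.64), Tnnc2 (-1.06) and Acta1 (-0.60). These read 13.95 to 14.20 on the array labelled RP58+/+, near the top of the scale, where array signals are compressed. In whole tissue, fewer fibres and less RNA per fibre cannot be told apart. Pvalb and Casq1 were below the lowest of the 14 fibre markers, Atp2a2 and Calr were above the highest, and the other 6 genes lay within their range. Of all genes, 6.51% were lower and 3.83% higher by this rule. The medians of markers of neighbouring tissues were above 0. They were 0.86 for liver (6 of 9 higher) and 0.63 for lung epithelium (4 of 6 higher). For mesothelium and leukocytes they were 0.53 (4 of 10 higher) and 0.48 (3 of 8 higher). The summed signals of these lists were 1.45, 4.79, 1.52 and 1.40 times those on the array labelled RP58+/+. The lung value rested on Sftpc, without which it was 1.496, and the other Sftpc probe set differed by 0.57. Fibroblast markers had a median of -0.01, and smooth muscle markers of 0.19. The part of these shifts in the values of the 10 genes was not tested. Casq2, Srl, Hrc, Sln and Atp2a2 are also heart genes. Cardiac markers had a median of 0.08 with 0 of 9 past the rule, and Myh6, Nppa and Tnni3 were under the floor. Other heart markers were measured on both arrays, and the brightest were Tnnt2 at 10.50 and 10.37 and Myl7 at 8.22 and 8.33. The next was Nkx2-5 at 7.01 and 6.86, and the dimmest, Ankrd1 at 5.80 and 5.75, was near the floor.

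Genes of calcium release, the partner process of storage, were lower in part. Of 15 measured, 9 were lower and 0 higher at a median of -0.93, against 6.51% lower among all genes. Jph1, which holds the reticulum to the transverse tubule, differed by -2.50, whereas its dimmer probe set differed by -0.11. The subunits of the voltage-sensing calcium channel Cacna1s (-1.66), Cacnb1 (-1.64) and Cacng1 (-1.62) followed, and the 4 probe sets of Cacnb1 ran up to 0.09. The neuronal junctophilin gene Jph4 (0.05) and the release channel gene Ryr3 (0.12) were nearest to 0, although another Ryr3 probe set was at -0.99.

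Among other pumps, exchangers, channels and buffers, some genes were lower and most were within 1.5-fold. Of 32 listed, 25 were on the array and 23 were above the floor, and of these 5 were lower and 0 higher, against 6.51% lower among all genes; the median was 0.00. Tmem38a and Tmem38b, which encode the TRIC channels that let potassium balance the charge of released calcium, were at -1.57 and -1.13, although the 4 probe sets of Tmem38b ran up to 0.36. Mrln, the gene of myoregulin, a SERCA-inhibiting peptide of skeletal muscle, read 9.92 on the array labelled RP58+/+ and 8.54 on the array labelled RP58-/-, a difference of -1.38. The other lower genes were the mitochondrial calcium uniporter gene Mcu (-0.75) and Stim2 (-0.69), a sensor of reticulum calcium, whose other probe set was at -0.02. The related genes Stim1 (-0.20), Atp2a3 (0.35), Itpr2 (0.25) and Itpr3 (0.11) were within the rule. Phospholamban (Pln), the cardiac and slow-muscle SERCA inhibitor, read 5.69 and 5.71, just above the floor, and the Golgi calcium pump gene Atp2c1 differed by 0.00. Of the SERCA-inhibiting peptides on the array, Mrln and Sln were thus lower, and Pln was near the floor on both arrays.

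Calreticulin's companions in the endoplasmic reticulum of all cells were near it. Of 20 such calcium-binding proteins and chaperones, 0 passed the 1.5-fold rule in either direction, 18 were above 0, and the median was 0.27. Scaled to all 27 poly-A control probe sets, 18 of the 20 were higher. The median of all genes was then 0.66, itself past the rule, so most genes were higher under that scaling. The range ran from -0.30 to 0.57, with calnexin (Canx, 0.08) and nucleobindin 2 (Nucb2, 0.02) nearest to 0. Genes that respond to calcium through calcineurin and calmodulin kinases had a median of -0.39. Of these 19 genes, 4 were lower and 0 higher, against 6.51% lower among all genes. The lower genes were Myoz1 (-2.10) and Myoz2 (-0.63), Z-disc proteins that bind calcineurin, and the kinase genes Camk2d (-0.80) and Camk2b (-0.71). The 7 probe sets of Camk2d ran up to 0.06. The calcineurin subunit gene Ppp3cc (-0.01) and the target factor gene Nfatc1 (-0.03) were nearest to 0.

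**Figure D4:**
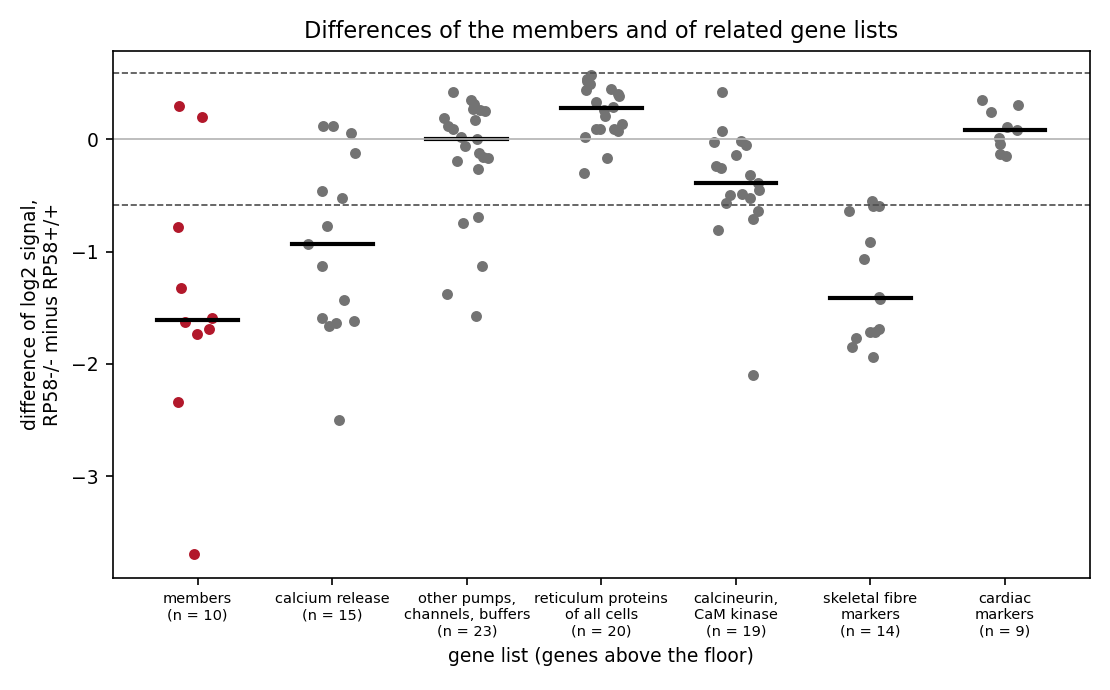
Differences of log2 signal, RP58-/- minus RP58+/+ (y axis), of the genes above the floor in each list (x axis), with a bar at each list's median and dashed lines at 1.5-fold. The medians are -1.61 for the 10 genes, -0.93 for calcium release, 0.00 for other pumps, channels and buffers, 0.27 for reticulum proteins of all cells, -0.39 for calcineurin and CaM kinase genes, -1.41 for skeletal fibre markers and 0.08 for cardiac markers.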

How the data were processed

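The data were 2 Affymetrix arrays of embryonic diaphragm RNA. Per the series' design text, the authors computed RMA signals (background correction, quantile normalisation between arrays and probe summary), so the deposited values are log2 signals per probe set, and a difference in total mRNA is removed. The submitters' processing notes name Affymetrix Expression Console 1.1. Of 45101 probe sets, 34945 carried 1 gene symbol in GEO's platform annotation. Entrez identifiers were looked up in RefSeq (GRCm38.p6), and 35673 of 35877 annotated probe sets had an entry. Differences, counts and medians were computed with pandas 2.3.3, with a floor at the 40th percentile, the brightest probe set per gene and a 1.5-fold rule. No test was run, since each group held 1 array, and the number of arrays limits the precision. Functions were tested on simulated data. Alternatives were the mean over probe sets, other floors, median and loess centring (fraction 0.3), spike-in scaling, specific probe sets only and other fold rules. The genes and lists were chosen with earlier results of these data known. Of each related list, up to 4 genes past the rule with the largest difference and 2 nearest to 0 are named, and further names were chosen after their values were seen.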

Additional observations from a re-analysis of the deposited data

How the results depend on the processing

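No paired analysis was possible because each genotype had 1 array. Casq1, Atp2a1, Pvalb, Srl and Asph stayed lower by the rule under all 11 alternatives, and Casq2 under the 10 that could read it. All of these but Asph had a single probe set, so averaging probe sets, moving the floor and keeping specific probe sets could not change their values. Between 6 and 8 of the genes were lower throughout. Scaling to all 27 poly-A control probe sets raised every difference by 0.66, and without the 3 silent Trp probe sets, a choice made after seeing the data, by 0.75. These moved the median of the 10 genes to -0.95 and -0.86, that of calcium release genes to -0.27 and -0.18, of other pumps, channels and buffers to 0.66 and 0.75, of reticulum proteins to 0.94 and 1.02, and of calcineurin and CaM kinase genes to 0.27 and 0.35. The lower genes then numbered 2 among other pumps, channels and buffers and 1 among calcineurin and CaM kinase genes under both, and 6 rather than 9 among calcium release genes. Genes higher by the rule numbered 13 and 15 of 23, 5 and 6 of 19, and 3 and 4 of 15 in these lists. Among reticulum proteins they numbered 18 of 20 under both. The medians of all genes were then 0.66 and 0.74, themselves past the rule, so most genes were higher. Of all genes, 1.48% and 1.29% were lower. Loess and hybridisation control scaling each made 1 reticulum protein higher. Without Trp, 7 member probe sets were lower, and Hrc (-0.58) and Sln (-0.03) were within the rule, while Calr (1.04) and Atp2a2 (0.95) were higher. Averaging probe sets gave -0.54 for the calcium release median, -0.70 for Asph and -1.46 for Atp2a1 minus Atp2a2. At 2-fold, 3 other pumps, channels and buffers and 1 calcineurin or CaM kinase gene were lower; with a threshold of 0.78, the 95th percentile of disagreement between probe sets, these numbers were 3 and 2. Why calls moved with scaling was not tested.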

Other observations

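Casq1 lies on chromosome 1, as does the targeted gene Zbtb18. Of the 68 protein-coding genes between them in RefSeq's order (GRCm38.p6), 26 were above the floor. Of these, 3 were lower by at least 1.5-fold and 6 higher, against 6.51% lower and 3.83% higher among all genes. Their differences ran from -1.57 to 2.73, with a median of 0.10. Among the 10 protein-coding genes on each side of Casq1, 14 passed the floor; their median was 0.15, with 1 lower (Pex19, -0.80) and 1 higher (Tagln2, 0.59). The Casq1 difference of -2.34 lay below the lowest of these neighbours. This set was chosen after the values were seen.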
